A study of Mus musculus with 40 samples.

Results

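PD-1 blockade was compared with vehicle treatment in CD11b+ cells, the myeloid fraction, of brain hemispheres bearing GL261 gliomas at 28 days after implantation (DPI). The comparison rests on 3 anti-PD-1 samples and 4 vehicle samples of the 40 samples of the series, chosen by their labelled treatment. A 4th sample labelled as anti-PD-1 has no column in the day 28 table and was not analysed here. The same table holds 4 samples with the integrin-blocking peptide 7aaRGD and 3 samples with 7aaRGD and anti-PD-1 together (combination). All 14 samples came from male mice that were 10 to 12 weeks old at implantation and carried GL261 cells, a mouse glioma line that was modified to express tdTomato and luciferase, in the right striatum. Each sample was 1 animal. Each mouse had an osmotic pump that delivered water or 7aaRGD (2 mg/ml) into the tumour, and received 4 intraperitoneal injections of antibody on days 8, 10, 12 and 14. In the anti-PD-1 group the pump held water and the antibody was anti-mouse CD279 at 10 mg/kg. In the vehicle group the pump held water and the antibody was a control IgG. The cells were therefore taken 14 days after the last injection.

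The labels and the study's methods disagree on the strain of these mice. The labels name nude mice, and the methods give C57BL/6 for GL261 and athymic Nude-Foxn1nu for U87-MG, a human glioma line. The class II pseudogene H2-Ea-ps separates the tables, with 0 to 0.0976 RPKM (reads per kilobase of transcript, scaled to library size) in the 14 samples at day 28, 0 to 0.0541 RPKM in 3 vehicle samples of GL261 gliomas at 21 DPI and 30.3 to 44.6 RPKM in 3 vehicle samples of U87-MG tumours, in tables that were normalized separately. The day 28 samples thus lie at the level of the other GL261 mice. The T cell genes Cd3g, Cd3e, Cd8a, Cd3d and Cd8b1 were at traces everywhere. Cd3g was at 0.018 to 0.39 RPKM in the 14 samples, 0 to 0.43 RPKM in the GL261 samples at 21 DPI and 0 in the U87-MG samples. In the same order Cd3e was at 0 to 0.40, 0 to 0.36 and 0 to 0.00096 RPKM, and Cd8a at 0 to 0.60, 0 to 0.41 and 0 to 0.00076 RPKM. Cd3d was at 0 to 0.65, 0.073 to 0.48 and 0.025 to 0.096 RPKM, and Cd8b1 at 0 to 0.84, 0.033 to 0.86 and 0.0028 to 0.031 RPKM. For Cd3d and Cd8b1 the U87-MG values lay within the range of the 14 samples. Myeloid identity was plain in all samples. Itgam, which encodes CD11b itself, was at 57.8 to 66.8 RPKM in the vehicle samples and 67.8 to 76.2 RPKM in the anti-PD-1 samples, and the microglial gene Tmem119 was at 172 RPKM or more in all of them.

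PD-1 is an inhibitory receptor of activated T cells, and its ligands PD-L1 and PD-L2 sit on tumour and myeloid cells. An antibody against PD-1 acts first on lymphocytes, and myeloid cells sense the result through cytokines, foremost interferon gamma (IFN-γ) from T and NK cells. IFN-γ binds a receptor built of separate ligand-binding and signalling chains, the kinases JAK1 and JAK2 pass the signal on, and it reaches GAS elements of genes such as Irf1, whose product in turn binds the interferon-stimulated response element (ISRE). In gliomas the CD11b+ compartment mixes resident microglia with monocytes, macrophages and dendritic cells from the blood, together called glioma-associated microglia and macrophages (GAMs).

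Of 9732 protein-coding genes that averaged 1 RPKM or more over the table, 2245 (23.1%) differed between anti-PD-1 and vehicle at an adjusted p under 0.05, by limma on log2(RPKM + 1) with the spread estimated from all 14 samples and Benjamini-Hochberg adjustment. With anti-PD-1, 1054 genes (10.8%) rose and 1191 (12.2%) fell, against 1195 and 1185 with median-of-ratios scaling, and in 3159 (32.5%) the values of the groups did not overlap. Most changes were small. Only 132 of the called genes changed by at least 1 on the log2 scale, 91 of them upwards and 41 downwards, and the median over all genes tested was -0.01. In bulk samples more cells of a type and more RNA per cell cannot be told apart. Fold changes on this scale understate the change of genes with low RPKM. Without anti-PD-1 sample 2 the number of called genes was 1357. Over the called genes, the anti-PD-1 sample closest to the vehicle mean was sample 3 for 961 genes (42.8%), sample 1 for 790 (35.2%) and sample 2 for 494 (22%).

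**Figure D1:**
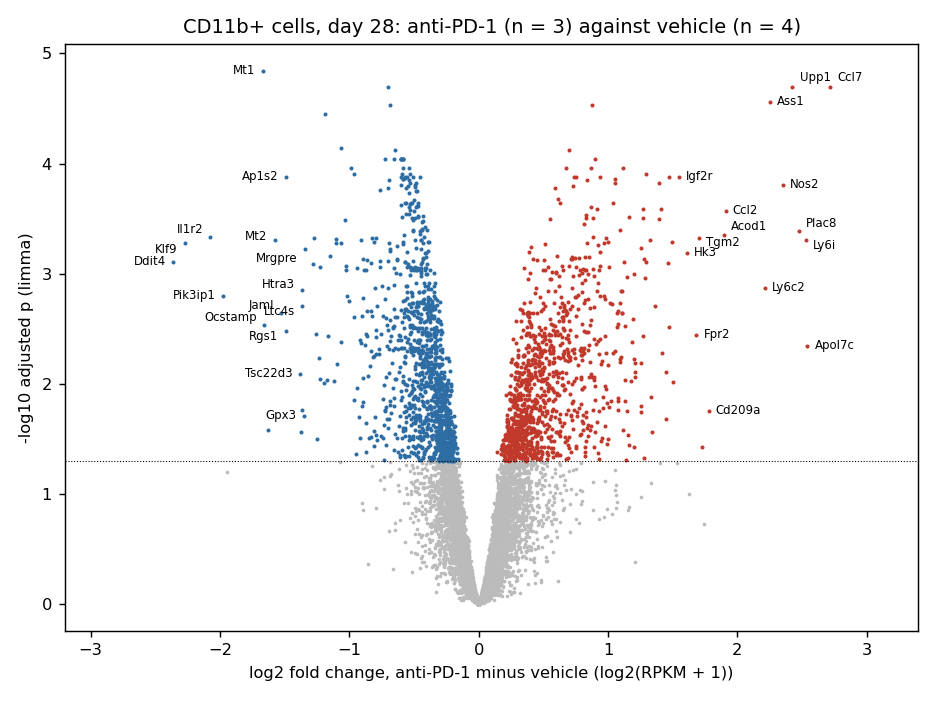
Each point is 1 of the 9732 genes tested, with the log2 fold change of anti-PD-1 minus vehicle on the x axis and -log10 of the adjusted p on the y axis. Red and blue points are the 1054 genes that rose and the 1191 that fell, grey points lie under the dotted threshold of 0.05, and the names are the 15 largest rises and 15 largest falls whose groups do not overlap.

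The largest rise was that of Ccl7, a chemokine that recruits monocytes through CCR2. Ccl7 was at 2.68, 3.18, 5.405 and 4.94 RPKM in the vehicle samples and 30.2, 28.3 and 36.0 RPKM in the anti-PD-1 samples, a 7.78-fold difference of the means (log2 fold change 2.72 with an SE of 0.21, adjusted p = 2e-05). All anti-PD-1 samples lay far above all vehicle samples. Apol7c, an apolipoprotein L family gene, followed with 0.786, 1.76, 2.40 and 4.70 RPKM in the vehicle samples and 6.36, 36.7 and 20.8 RPKM in the anti-PD-1 samples (log2 fold change 2.54 with an SE of 0.53, adjusted p = 0.00453), with wide spread among the anti-PD-1 samples. Next came the Ly6-family gene Ly6i (2.53), the monocyte gene Plac8 (2.48), the uridine phosphorylase gene Upp1 (2.43), Nos2, Ass1, Ly6c2, Ccl2 and Acod1, the values in parentheses being log2 fold changes. Ly6i and Ly6c2 belong to a family of near-identical copies, so reads may have been shared or lost between them. Upp1 was near 1 RPKM in every vehicle sample, at 0.798, 0.913, 1.56 and 1.07, and at 11.6, 11.1 and 7.93 RPKM with anti-PD-1 (adjusted p = 2e-05). The remaining genes among the 15 largest rises were Cd209a, the transglutaminase gene Tgm2 (1.71), the formyl peptide receptor gene Fpr2 (1.68), the hexokinase gene Hk3 (1.61) and the mannose 6-phosphate receptor gene Igf2r (1.55).

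The largest fall was that of Ddit4. Ddit4, an inhibitor of mTORC1, was at 87.6, 129.7, 104 and 80.6 RPKM in the vehicle samples and 11.3, 11.6 and 46.4 RPKM in the anti-PD-1 samples (log2 fold change -2.36 with an SE of 0.36, adjusted p = 0.000775), and Klf9, a zinc-finger transcription factor, at 19.1, 32.0, 20.8 and 24.0 RPKM in the vehicle samples and 1.70, 4.12 and 8.46 RPKM in the anti-PD-1 samples (log2 fold change -2.27 with an SE of 0.32, adjusted p = 0.000526). For both genes anti-PD-1 sample 3 was the closest to vehicle, without reaching it. Il1r2, the decoy receptor of interleukin 1, was at 103, 56.1, 72.9 and 79.4 RPKM in the vehicle samples and 15.6, 25.9 and 12.7 RPKM in the anti-PD-1 samples (log2 fold change -2.08 with an SE of 0.29, adjusted p = 0.000468). Pik3ip1, a negative regulator of PI3 kinase, changed by -1.98, and the metallothionein genes Mt1 and Mt2 by -1.67 and -1.57. Mt1 had the smallest adjusted p of all genes (1.43e-05), with 134, 104, 90.9 and 98.9 RPKM in the vehicle samples and 31.7, 35.1 and 31.1 RPKM in the anti-PD-1 samples. The rest of the 15 largest falls were Ocstamp (-1.66), Jaml (-1.52), Rgs1 (-1.49), Ap1s2 (-1.49), Tsc22d3 (-1.38), Htra3 (-1.37), Ltc4s (-1.37), Gpx3 (-1.35) and Mrgpre (-1.34). The call of Gpx3 was lost without anti-PD-1 sample 1 (adjusted p = 0.0878).

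**Figure D2:**
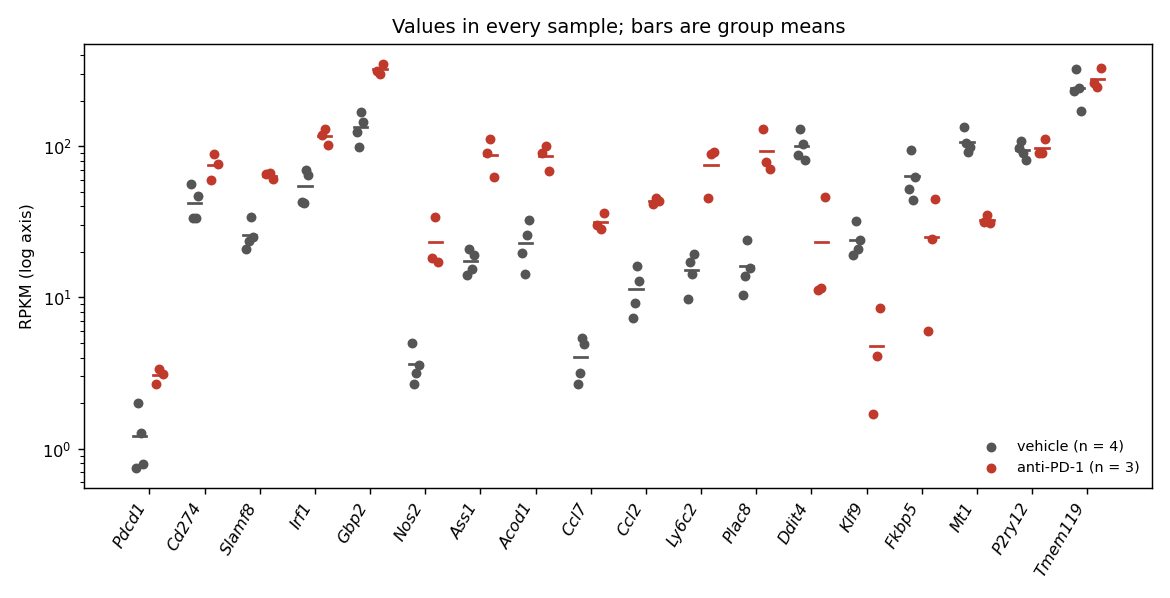
RPKM of 18 genes on a log axis, with 1 point for each of the 4 vehicle samples (grey) and 3 anti-PD-1 samples (red) and a bar at the group mean. Nos2, Ass1, Ccl7 and Plac8 lie higher in every anti-PD-1 sample, Klf9 and Mt1 lower, and the groups overlap for P2ry12 and Tmem119.

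The receptor that the antibody binds, and its ligands, were detected in the CD11b+ cells. Pdcd1, which encodes PD-1, was low at 0.750, 2.01, 1.28 and 0.797 RPKM in the vehicle samples and 2.69, 3.35 and 3.12 RPKM in the anti-PD-1 samples (log2 fold change 0.91 with an SE of 0.19, adjusted p = 0.00431). Every anti-PD-1 sample was above every vehicle sample. The antibody acts on the protein, so the transcript is no check of its action. Cd274, which encodes PD-L1, was at 56.0, 33.3, 33.4 and 46.5 RPKM in the vehicle samples and 59.6, 89.4 and 76.5 RPKM in the anti-PD-1 samples (log2 fold change 0.83 with an SE of 0.22, adjusted p = 0.0182). Its lowest anti-PD-1 value was only just above its highest vehicle value, and the call was lost without vehicle sample 2 or without anti-PD-1 sample 2 (adjusted p between 0.0513 and 0.0871). Pdcd1lg2, which encodes PD-L2, was at 2.63, 6.95, 4.75 and 6.20 RPKM in the vehicle samples and 5.23, 33.0 and 34.1 RPKM in the anti-PD-1 samples (log2 fold change 1.73 with an SE of 0.55, adjusted p = 0.0377). Samples 2 and 3 were far above vehicle and sample 1 lay within it, and the call was lost without vehicle sample 1, 3 or 4 or without anti-PD-1 sample 2 or 3 (adjusted p between 0.0546 and 0.164). Over all genes tested 10.8% rose and 12.2% fell. Of 18 checkpoint ligands and receptors tested, 5 rose and 0 fell (27.8% called, against 23.1%), with a median of 0.02. The others that rose were Tnfrsf14 (0.70), the herpesvirus entry mediator, and Pilra (0.63), whose call was lost without vehicle sample 1, 2 or 4 or without anti-PD-1 sample 1 or 2 (adjusted p between 0.0522 and 0.129). Havcr2, which encodes TIM-3, had a difference of -0.29 (adjusted p = 0.113), the galectin gene Lgals9 one of -0.20 and Vsir, which encodes VISTA, one of -0.17. The number of members called was 2 without anti-PD-1 sample 2 and 3 without vehicle sample 1, vehicle sample 2 or vehicle sample 4.

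Fc gamma receptors bind the constant part of IgG, and both groups had received an IgG. Fcgr1, the high-affinity receptor and an IFN-γ target, was at 151, 135, 177 and 139.9 RPKM in the vehicle samples and 209, 212 and 221 RPKM in the anti-PD-1 samples (log2 fold change 0.51 with an SE of 0.10, adjusted p = 0.00371). No sample overlapped. Fcgr3, an activating receptor of low affinity, was at 1059.7, 1078, 1029 and 1047 RPKM in the vehicle samples and 564, 814 and 913 RPKM in the anti-PD-1 samples (log2 fold change -0.49 with an SE of 0.14, adjusted p = 0.0225). Its call was lost without vehicle sample 2 or without anti-PD-1 sample 1 (adjusted p between 0.0507 and 0.088), with no filter on low values (adjusted p = 0.0524) and with quantile normalization, which brought the log2 fold change to -0.24 (adjusted p = 0.227). The inhibitory Fcgr2b had a difference of -0.13 (adjusted p = 0.62), with 247, 321, 236 and 297 RPKM in the vehicle samples and 191, 281 and 292 RPKM in the anti-PD-1 samples, and the activating Fcgr4 one of 0.20 (adjusted p = 0.17). Trim21, the intracellular Fc receptor and an interferon-induced gene, rose by 0.64 (adjusted p = 0.00161). In all, 2 of 7 Fc receptor genes rose and 1 fell (42.9% called, against 23.1% of all genes tested).

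Promoters of 4 interferon targets that rose show the elements named above. They are shown because they hold the elements through which interferons are known to act. Sequences are from RefSeq on GRCm38.p6 (the mm10 build), 5′ to 3′ on the strand of the gene, and end at the base before the annotated start. Capitals mark a match to the GAS letters TTCNNNGAA or to the core of the ISRE, TTTCNNTTTC on either strand (GAAANNGAAA). Irf1 is at chr11:53769894-53770013 (plus strand), Gbp2 at chr3:142620543-142620662 (plus strand), Igtp at chr11:58199436-58199555 (plus strand) and Isg15 at chr4:156200819-156200938 (minus strand).
Irf1: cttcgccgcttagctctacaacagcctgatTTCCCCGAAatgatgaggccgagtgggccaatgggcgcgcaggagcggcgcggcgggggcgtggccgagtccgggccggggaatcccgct
Gbp2: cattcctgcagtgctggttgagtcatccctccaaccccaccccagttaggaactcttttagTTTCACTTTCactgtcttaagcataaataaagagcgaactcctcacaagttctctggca
Igtp: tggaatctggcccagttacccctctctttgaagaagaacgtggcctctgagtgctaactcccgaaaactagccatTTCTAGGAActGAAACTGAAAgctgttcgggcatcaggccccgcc
Isg15: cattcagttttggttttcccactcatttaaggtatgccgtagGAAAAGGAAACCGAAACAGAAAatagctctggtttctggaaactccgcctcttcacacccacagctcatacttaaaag

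In Irf1 the GAS match began 90 bases before the start, and in Gbp2 the ISRE match began 59 bases before it. Igtp had a GAS match 45 bases and an ISRE match 34 bases before the start, and the capitals in Isg15 are 3 ISRE matches that overlap each other. Over the 250 bases before the start, 2.98% of 32851 RefSeq promoters held the ISRE core and 7.02% the GAS letters. Among genes tested, 7838 had a promoter in the table, of which 3.62% held the ISRE core and 7.27% the GAS letters. The shares were 7.84% and 7.6% in 855 genes that rose and 3.22% and 5.92% in 963 genes that fell. All 9 of the IFN-γ-induced GTPase genes that rose and had a promoter held the ISRE core, and 6 held the GAS letters. For the IFN-γ pathway list the counts were 3 and 4 of 10, for the type I list 8 and 3 of 20, and for the class I list 1 and 0 of 9. These are matches of letters and not measured binding.

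The IFN-γ pathway rose at the level of Irf1 and other targets, whereas the receptor chains moved in opposite directions. Ifng, the ligand, was not tested because its mean was under 1 RPKM, with 0.0115, 0.0711, 0.111 and 0.0845 RPKM in the vehicle samples and 1.01, 1.87 and 0.00213 RPKM in the anti-PD-1 samples. Anti-PD-1 sample 3 was below all vehicle samples. Ifngr1, the ligand-binding chain, was at 211, 183, 161 and 169.9 RPKM in the vehicle samples and 116, 108 and 116 RPKM in the anti-PD-1 samples (log2 fold change -0.66 with an SE of 0.13, adjusted p = 0.00314), and all anti-PD-1 samples were below all vehicle samples. Ifngr2, the signalling chain, rose by 0.23 (adjusted p = 0.0252), a call that was lost without vehicle sample 3 or without anti-PD-1 sample 1 or 2 (adjusted p between 0.053 and 0.11). The kinase genes had differences of 0.08 for Jak1 (adjusted p = 0.45) and 0.31 for Jak2 (adjusted p = 0.113). Irf1, the transcription factor, was at 42.7, 41.9, 69.8 and 64.3 RPKM in the vehicle samples and 118, 129 and 102 RPKM in the anti-PD-1 samples (log2 fold change 1.11 with an SE of 0.20, adjusted p = 0.00227). It was higher in each anti-PD-1 sample than in any vehicle sample. Of the 23 genes of this list that were tested, 16 rose and 1 fell, with a median of 0.60. Left-out samples lowered the number called to 8 without anti-PD-1 sample 2 and 11 without anti-PD-1 sample 1.

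Among the targets, Slamf8, a receptor of the SLAM family on myeloid cells, was at 21.0, 23.4, 34.2 and 24.99 RPKM in the vehicle samples and 65.0, 66.2 and 60.7 RPKM in the anti-PD-1 samples (log2 fold change 1.29 with an SE of 0.14, adjusted p = 0.000124). Icam1, the adhesion ligand of LFA-1, rose by 0.48 (adjusted p = 0.00505), Wars, the tryptophanyl-tRNA synthetase gene, by 0.49 (adjusted p = 0.0126), and Socs1, the feedback inhibitor of JAK kinases, by 1.08 (adjusted p = 0.0136). The call of Socs1 was lost without anti-PD-1 sample 2 (adjusted p = 0.0593) and that of Wars without anti-PD-1 sample 2 (adjusted p = 0.0613). Ciita, which drives class II transcription, rose by 0.83 (adjusted p = 0.0252), with a loss of the call without vehicle sample 1 or 2 or without anti-PD-1 sample 1 or 2 (adjusted p between 0.0592 and 0.0985). The myeloid factor Irf8 rose by 0.26 (adjusted p = 0.0415), the ubiquitin-like Ubd by 0.90 (adjusted p = 0.0273). Irf8 was not called without vehicle sample 1 or 2 or without anti-PD-1 sample 1 or 2 (adjusted p between 0.06 and 0.131) and Ubd not without vehicle sample 1 or 4 or without anti-PD-1 sample 1 or 2 (adjusted p between 0.0555 and 0.118). Not past the threshold were Cxcl9, at 163, 255, 350.3 and 210.0 RPKM in the vehicle samples and 432, 402 and 263 RPKM in the anti-PD-1 samples (log2 fold change 0.60 with an SE of 0.24, adjusted p = 0.0832), Aif1 (difference of 0.32), Fcgr4 and Serpina3g (0.11). Cxcl11 was not analysed here and Ido1, the tryptophan-degrading enzyme, was at most 0.0702 RPKM in both groups.

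The guanylate-binding proteins (Gbp) and immunity-related GTPases (Irg family) attack vacuoles that hold microbes. Of 17 such genes tested, 13 rose and 0 fell, with a median of 0.89, and their summed level was 463, 351, 603 and 521 RPKM in the vehicle samples and 896, 982 and 1000.3 RPKM in the anti-PD-1 samples. The anti-PD-1 sums were close to each other and all above the vehicle sums. Gbp2 was at 123, 99.5, 169 and 143 RPKM in the vehicle samples and 316, 301 and 348 RPKM in the anti-PD-1 samples (log2 fold change 1.28 with an SE of 0.21, adjusted p = 0.00109), and Gbp5 at 18.2, 12.5, 20.9 and 18.1 RPKM in the vehicle samples and 40.4, 48.4 and 44.8 RPKM in the anti-PD-1 samples (log2 fold change 1.32 with an SE of 0.19, adjusted p = 0.000498). Neither overlapped between groups. Of the Irg family, Igtp rose by 1.08 (adjusted p = 0.00285), Irgm2 by 1.03 (adjusted p = 0.00526) and Irgm1 by 0.69 (adjusted p = 0.00362). Tgtp1 and Tgtp2 rose by 1.26 and 1.21 (adjusted p = 0.00649 and 0.0065), but they are near-identical copies whose reads may not be separable. Gbp4, Gbp3 and Gbp9 also rose, by 0.89, 0.65 and 0.66. The remaining calls were lost in some fits with 1 sample left out. Iigp1 (0.93, adjusted p = 0.0481) was lost without vehicle sample 1, 2 or 4 or without anti-PD-1 sample 1, 2 or 3 (adjusted p between 0.0534 and 0.153), Gbp7 (0.58, adjusted p = 0.0416) without vehicle sample 1, 2 or 4 or without anti-PD-1 sample 2 or 3 (adjusted p between 0.0716 and 0.174) and F830016B08Rik (0.62, adjusted p = 0.0445) without vehicle sample 1, 2 or 4 or without anti-PD-1 sample 2 or 3 (adjusted p between 0.0832 and 0.162). Gbp2b did not pass, with 1.28, 1.21, 6.35 and 0.465 RPKM in the vehicle samples and 4.61, 4.47 and 6.29 RPKM in the anti-PD-1 samples (log2 fold change 1.16 with an SE of 0.53, adjusted p = 0.13), and vehicle sample 3 was as high as the anti-PD-1 samples.

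Genes of the type I interferon response, which IFN-γ also induces in part, rose in nearly all cases. Of 29 tested, 26 rose and 0 fell, with a median of 0.70. Leaving samples out brought the number called to 16 without vehicle sample 2 and 17 without anti-PD-1 sample 2. Oas3, a sensor of double-stranded RNA, was at 14.5, 13.5, 15.1 and 17.6 RPKM in the vehicle samples and 29.7, 35.7 and 32.1 RPKM in the anti-PD-1 samples (log2 fold change 1.05 with an SE of 0.12, adjusted p = 0.000149). Zbp1, a sensor of Z-form nucleic acid, was at 28.2, 27.9, 42.5 and 34.4 RPKM in the vehicle samples and 74.0, 81.9 and 86.0 RPKM in the anti-PD-1 samples (log2 fold change 1.27 with an SE of 0.17, adjusted p = 0.000311). In both genes the groups lay well apart. Isg15, the ubiquitin-like modifier, was at 77.1, 55.3, 87.3 and 70.2 RPKM in the vehicle samples and 162, 159.6 and 139 RPKM in the anti-PD-1 samples (log2 fold change 1.09 with an SE of 0.24, adjusted p = 0.00591). The E3 ligase gene Trim30a rose by 0.84 (adjusted p = 0.000142), the RNA sensor gene Ddx58 by 0.81 (adjusted p = 0.000354) and Herc6, the ligase for ISG15 in mice, by 0.83 (adjusted p = 0.000309). Further rises were 1.20 for Oasl2, 0.98 for Oas2, 0.88 for Usp18, which removes ISG15 and dampens the receptor, and 0.40 for Bst2, which encodes tetherin. Leaving out 1 sample ended the calls of Ifit1, Irf7, Ifih1, Ifit2, Ifit3, Mx1, Oasl1, Cmpk2, Xaf1, Ifi47 and Rtp4, and vehicle sample 2 did so for all of these but Rtp4. Of these, Ifit1, an RNA cap sensor, was lost without vehicle sample 2 or without anti-PD-1 sample 1 or 2 (adjusted p between 0.0642 and 0.0848) and Irf7, the factor that amplifies interferon genes, without vehicle sample 1, 2, 3 or 4 or without anti-PD-1 sample 1, 2 or 3 (adjusted p between 0.0539 and 0.0952). The antiviral gene Rsad2 had a difference of 0.40 (adjusted p = 0.204).

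MHC class I displays peptides from the cell's own proteins to CD8+ T cells. Of 18 genes tested, 12 rose and 0 fell, with a median of 0.42. Nlrc5, the transactivator of class I genes, was at 13.7, 12.2, 15.6 and 15.2 RPKM in the vehicle samples and 25.7, 30.6 and 34.2 RPKM in the anti-PD-1 samples (log2 fold change 1.03 with an SE of 0.13, adjusted p = 0.000227), well separated between groups. The peptide transporter gene Tap2 rose by 0.60 (adjusted p = 0.000967), and the loading factors Tapbp and Calr by 0.50 and 0.63 (adjusted p = 0.00208 and 0.00448). Of the heavy chains, H2-K1 was at 958, 963, 794 and 847 RPKM in the vehicle samples and 1052, 1159.6 and 1344 RPKM in the anti-PD-1 samples (log2 fold change 0.41 with an SE of 0.11, adjusted p = 0.0165), a call lost without anti-PD-1 sample 3 (adjusted p = 0.071). H2-D1, the other classical heavy chain, was at 1718, 1760.2, 1390.0 and 1509.7 RPKM in the vehicle samples and 1569.6, 1644 and 1853 RPKM in the anti-PD-1 samples (log2 fold change 0.09 with an SE of 0.11, adjusted p = 0.59), with overlapping groups. Heavy-chain genes resemble each other closely, and their reads may not be separable. The light chain B2m had a difference of 0.24 (adjusted p = 0.0575). In the immunoproteasome, which cuts such peptides, 4 of 5 genes rose and 0 fell. Psmb9 rose by 0.62, Psme2 by 0.71, Psmb8 by 0.40 and Psmb10 by 0.38, and the adjusted p was at most 0.00976.

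MHC class II, which presents taken-up antigen to CD4+ T cells, was abundant in both groups. Its genes summed to 15784, 14622, 13412 and 12861 RPKM in the vehicle samples and 17323, 18544 and 17162 RPKM with anti-PD-1. Of 10 genes tested, 3 rose and 0 fell (30% called, against 23.1% of all genes tested), with a median of 0.33. Those that rose were Ciita, given above, and H2-Ob and H2-Oa, the chains of H2-O, which inhibits peptide loading. H2-Ob was at 2.10, 2.76, 1.96 and 1.76 RPKM in the vehicle samples and 3.51, 4.04 and 4.62 RPKM in the anti-PD-1 samples (log2 fold change 0.69 with an SE of 0.15, adjusted p = 0.00542), and H2-Oa rose by 0.82 (adjusted p = 0.0451), a call lost without vehicle sample 1, 3 or 4 or without anti-PD-1 sample 2 or 3 (adjusted p between 0.0709 and 0.17). The number called in this list was 1 without vehicle sample 1 or anti-PD-1 sample 2. H2-Ab1 was at 2156, 1905, 1716 and 1714 RPKM in the vehicle samples and 2585, 2630.2 and 2427 RPKM in the anti-PD-1 samples (log2 fold change 0.45 with an SE of 0.19, adjusted p = 0.0987). All its anti-PD-1 values were above all its vehicle values, yet it did not pass. The differences were 0.34 for H2-Eb1, 0.16 for H2-Aa and 0.32 for Cd74, the invariant chain, with adjusted p values of 0.166, 0.535 and 0.193.

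**Figure D3:**
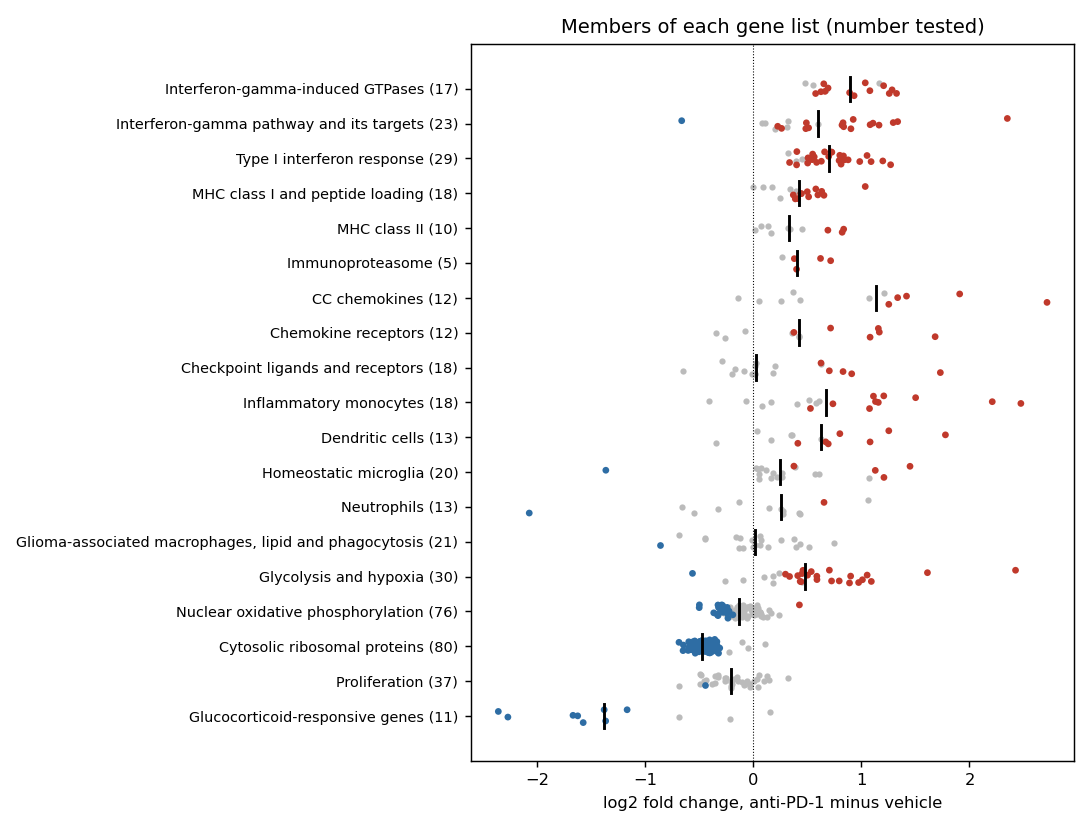
Each point is a tested gene of a list, placed by its log2 fold change of anti-PD-1 minus vehicle. Red genes rose, blue genes fell, grey genes did not pass, the black bar is the median of the list, and the number tested stands in parentheses. Over all genes tested, 10.8% rose and 12.2% fell. The medians of the interferon lists lie to the right of 0 and those of the ribosomal and glucocorticoid-responsive lists to the left, while single genes such as Ifngr1 lie on the other side.

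Ligands of CCR2 were the chemokines with the largest rises. Ccl2, Ccl7 and Ccl12 are neighbours on chromosome 11 of mm10, at chr11:82035571-82037453, chr11:82045712-82047525 and chr11:82101845-82103400. Ccl2 was at 7.29, 9.15, 16.2 and 12.8 RPKM in the vehicle samples and 41.6, 45.6 and 43.7 RPKM in the anti-PD-1 samples (log2 fold change 1.91 with an SE of 0.24, adjusted p = 0.00027), with anti-PD-1 values in a narrow band above vehicle. Ccl12 rose by 1.42 (adjusted p = 0.00529). Ccl5, which attracts T cells and NK cells and is also made by them, was at 162, 266, 128 and 101 RPKM in the vehicle samples and 418, 458 and 309 RPKM in the anti-PD-1 samples (log2 fold change 1.33 with an SE of 0.34, adjusted p = 0.0133), and its call was lost without anti-PD-1 sample 2 (adjusted p = 0.0586). Ccl22, a ligand of CCR4 made by mature dendritic cells, rose by 1.25 (adjusted p = 0.0158), not called without anti-PD-1 sample 1 (adjusted p = 0.0727). In all 5 of 12 CC chemokines rose and 0 fell (41.7% called, against 23.1% of all genes tested). Their median was 1.14 (0.57 without anti-PD-1 sample 3). Ccl3 and Ccl4 had differences of 0.05 and 0.37, and Ccl8 one of 1.07 (adjusted p = 0.135). Of 7 CXC chemokines, Cxcl10, an IFN-γ target that attracts CXCR3+ T cells, and Cxcl13, which attracts B cells, rose by 0.92 and 1.34 (adjusted p = 0.0426 and 0.0271). This was 28.6% called, against 23.1% of all genes tested. Cxcl10 was at 56.8, 35.2, 63.7 and 59.1 RPKM in the vehicle samples and 145, 104 and 67.0 RPKM in the anti-PD-1 samples and lost its call without vehicle sample 1, 2 or 4 or without anti-PD-1 sample 1 or 2 (adjusted p between 0.0598 and 0.172), while that of Cxcl13 was lost without vehicle sample 4 or without anti-PD-1 sample 1 or 2 (adjusted p between 0.0695 and 0.114). The number of CXC chemokines called was 0 without vehicle sample 4, anti-PD-1 sample 1 or anti-PD-1 sample 2 and 1 without vehicle sample 1 or vehicle sample 2.

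On the receptor side, 6 of 12 genes rose and 0 fell (50% called, against 23.1% of all genes tested). Their median was 0.42 (0.26 with no filter on low values). Fpr2, a receptor for formylated peptides, was at 3.56, 5.08, 11.9 and 10.2 RPKM in the vehicle samples and 23.1, 36.5 and 17.5 RPKM in the anti-PD-1 samples (log2 fold change 1.68 with an SE of 0.33, adjusted p = 0.00358), and Ccr7, which guides dendritic cells to lymph nodes, at 0.583, 0.496, 1.03 and 0.630 RPKM in the vehicle samples and 3.59, 2.96 and 1.44 RPKM in the anti-PD-1 samples (log2 fold change 1.08 with an SE of 0.20, adjusted p = 0.00217). Both kept their groups apart, and anti-PD-1 sample 3 was the lowest of the anti-PD-1 group. Ccr2, the receptor of the chemokines above, was at 7.00, 7.18, 19.2 and 16.8 RPKM in the vehicle samples and 35.3, 20.5 and 25.8 RPKM in the anti-PD-1 samples (log2 fold change 1.16 with an SE of 0.35, adjusted p = 0.029), and its call was lost without vehicle sample 1 or 2 or without anti-PD-1 sample 1 or 3 (adjusted p between 0.0611 and 0.106). Cx3cr1, the fractalkine receptor gene, and Fpr1 rose by 0.38 and 1.17 (adjusted p = 0.014 and 0.0357). These calls too were lost in some fits with 1 sample left out. Cx3cr1 was lost without anti-PD-1 sample 2 or 3 (adjusted p between 0.0542 and 0.0584) and Fpr1 without vehicle sample 1 or 2 or without anti-PD-1 sample 1 or 2 (adjusted p between 0.093 and 0.17). The number of receptors called was 3 without vehicle sample 1, vehicle sample 2, anti-PD-1 sample 1, anti-PD-1 sample 2 or anti-PD-1 sample 3.

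Among cytokines, 4 of 13 genes rose and 1 fell (38.5% called, against 23.1% of all genes tested). Il1rn, the interleukin 1 receptor antagonist, was at 12.04, 19.4, 25.1 and 20.2 RPKM in the vehicle samples and 44.4, 54.2 and 49.9 RPKM in the anti-PD-1 samples (log2 fold change 1.36 with an SE of 0.24, adjusted p = 0.00195), with no overlap. Il1b had a difference of 0.36 (adjusted p = 0.491), with 226, 112, 119 and 104 RPKM in the vehicle samples and 201, 250.2 and 98.7 RPKM in the anti-PD-1 samples, and vehicle sample 1 was the highest of its group and within the range of anti-PD-1. The antagonist rose while the decoy receptor Il1r2, given above, fell. Tnf rose by 1.11 (adjusted p = 0.0261), Il27 by 0.81 (adjusted p = 0.0225) and Il15, a survival factor for NK and CD8+ T cells, by 0.48 (adjusted p = 0.0108), and Il16 fell by 0.33 on the log2 scale (adjusted p = 0.0187). The calls were lost for Tnf without vehicle sample 1, 2 or 4 or without anti-PD-1 sample 1 or 2 (adjusted p between 0.0536 and 0.116), for Il27 without vehicle sample 2 or 4 or without anti-PD-1 sample 1 or 2 (adjusted p between 0.0592 and 0.0736), for Il15 without anti-PD-1 sample 2 (adjusted p = 0.0562) and for Il16 without anti-PD-1 sample 2 (adjusted p = 0.0621). The number of cytokine genes called was 1 without anti-PD-1 sample 2 and 3 without vehicle sample 2, vehicle sample 4 or anti-PD-1 sample 1. Of 13 co-stimulatory genes, 5 rose and 0 fell (38.5% called, against 23.1% of all genes tested). Slamf7 rose by 0.86 and the death ligand gene Tnfsf10 by 0.55 (adjusted p = 0.00638 and 0.0049). Cd40 rose by 0.82 and Tnfrsf9, which encodes 4-1BB, by 0.86 (adjusted p = 0.0372 and 0.0263). Cd40 was not called without vehicle sample 2 or 4 or without anti-PD-1 sample 1 or 3 (adjusted p between 0.0588 and 0.155), nor Tnfrsf9 without vehicle sample 1 or 4 or without anti-PD-1 sample 2 (adjusted p between 0.0531 and 0.135). The B7 genes Cd80 and Cd86 had differences of 0.01 and 0.20 (adjusted p = 0.963 and 0.268). The number of co-stimulatory genes called was 3 without vehicle sample 4.

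Enzymes that use arginine or make antimicrobial metabolites separated into a group that rose and a group that did not pass. Nos2, the inducible nitric oxide synthase, was at 4.98, 2.67, 3.18 and 3.59 RPKM in the vehicle samples and 18.3, 34.1 and 17.2 RPKM in the anti-PD-1 samples (log2 fold change 2.35 with an SE of 0.28, adjusted p = 0.000156), and Ass1, which rebuilds arginine from citrulline, at 14.1, 20.9, 15.4 and 19.1 RPKM in the vehicle samples and 90.1, 111 and 62.6 RPKM in the anti-PD-1 samples (log2 fold change 2.25 with an SE of 0.19, adjusted p = 2.75e-05). Acod1, which makes itaconate, was at 19.7, 14.2, 25.8 and 32.5 RPKM in the vehicle samples and 90.2, 99.8 and 68.1 RPKM in the anti-PD-1 samples (log2 fold change 1.90 with an SE of 0.26, adjusted p = 0.000442). In these 3 genes all anti-PD-1 samples were above all vehicle samples. Il4i1, an amino acid oxidase, rose by 0.80 (adjusted p = 0.00288) from a low level. Arg1, the arginase that GAMs are known to express, was at 199, 287, 148 and 424 RPKM in the vehicle samples and 107, 524 and 717 RPKM in the anti-PD-1 samples (log2 fold change 0.48 with an SE of 0.62, adjusted p = 0.607). Anti-PD-1 sample 1 was below all vehicle samples and samples 2 and 3 above them, so the groups overlapped. Of 12 enzymes, 4 rose and 0 fell (33.3% called, against 23.1% of all genes tested). Their median was 0.56 (0.30 with a pseudocount of 5 RPKM).

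Of 15 complement genes tested, 4 rose and 0 fell (26.7% called, against 23.1% of all genes tested). The number called was 7 without anti-PD-1 sample 1. C3, the central component, was at 169, 249, 163 and 203 RPKM in the vehicle samples and 415, 629 and 586 RPKM in the anti-PD-1 samples (log2 fold change 1.46 with an SE of 0.22, adjusted p = 0.000798). Cfb, the alternative pathway protease, rose by 0.80, the stabiliser Cfp by 1.00 and C1ra, a protease of the C1 complex, by 0.85 (adjusted p = 0.00494, 0.00667 and 0.00497). C1qa, which like C1qb and C1qc is made by microglia and macrophages in bulk, had a difference of -0.13 (adjusted p = 0.308).

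Markers of inflammatory monocytes were higher with anti-PD-1. Of 18 monocyte genes tested, 10 rose and 0 fell, with a median of 0.67, and the list summed to 2935, 3439, 3249.5 and 3423 RPKM in the vehicle samples and 5639, 6678 and 4425 RPKM in the anti-PD-1 samples, without overlap. Ly6c2, the gene of the monocyte antigen Ly6C, was at 9.71, 17.1, 14.2 and 19.3 RPKM in the vehicle samples and 45.2, 88.4 and 91.0 RPKM in the anti-PD-1 samples (log2 fold change 2.21 with an SE of 0.37, adjusted p = 0.00133), and Plac8 at 10.3, 13.8, 24.1 and 15.7 RPKM in the vehicle samples and 129, 79.1 and 70.7 RPKM in the anti-PD-1 samples (log2 fold change 2.48 with an SE of 0.34, adjusted p = 0.000413). All anti-PD-1 samples exceeded all vehicle samples for both. The lysozyme gene Lyz2, which dominates the sum, was at 2478, 2881, 2633 and 2772 RPKM in the vehicle samples and 4789, 5347 and 3501 RPKM in the anti-PD-1 samples (log2 fold change 0.74 with an SE of 0.15, adjusted p = 0.0048). S100a4 rose by 1.501, Vcan by 1.21, Ms4a4c by 1.11 and Cd44 by 0.53 (adjusted p = 0.00963, 0.00779, 0.00144 and 0.00999), and for S100a4 and Vcan anti-PD-1 sample 1 was the highest. The calcium-binding protein gene S100a6 rose by 1.07, with its call lost without anti-PD-1 sample 1 (adjusted p = 0.0679). Chil3 had a difference of 0.61 (adjusted p = 0.611), with 93.9, 205, 190.4 and 234 RPKM in the vehicle samples and 82.8, 654 and 331 RPKM in the anti-PD-1 samples. The number of monocyte genes called was 6 without anti-PD-1 sample 1.

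Of the microglial genes tested 25% passed, against 23.1% of all genes tested. P2ry12, the purinergic receptor of resting microglia, was at 96.6, 109, 90.7 and 80.4 RPKM in the vehicle samples and 89.6, 90.0 and 112 RPKM in the anti-PD-1 samples (log2 fold change 0.05 with an SE of 0.16, adjusted p = 0.868), and Tmem119 at 230.0, 325, 244 and 172 RPKM in the vehicle samples and 263, 245 and 326 RPKM in the anti-PD-1 samples (log2 fold change 0.22 with an SE of 0.20, adjusted p = 0.445). The groups overlapped for both. Of 20 genes tested, 4 rose and 1 fell, with a median of 0.24 (0.12 without anti-PD-1 sample 3, 0.37 without vehicle sample 2 and 0.14 without vehicle sample 4), and the sums were 3329, 4158, 3234 and 3098 RPKM with vehicle and 3410.0, 3843 and 4688 RPKM with anti-PD-1. The rises were those of Gpr84, a fatty acid receptor induced by inflammation (1.45, adjusted p = 0.00775), Slc2a5 (1.21, adjusted p = 0.00869), Olfml3 (1.13, adjusted p = 0.00932) and Cx3cr1, given above. Ltc4s, a leukotriene synthase gene, fell. Slc2a5, a fructose transporter, was at 4.33, 9.91, 6.61 and 4.51 RPKM in the vehicle samples and 11.3, 16.0 and 19.4 RPKM in the anti-PD-1 samples, and Olfml3 at 29.4, 69.8, 47.7 and 34.4 RPKM in the vehicle samples and 79.6, 98.7 and 109 RPKM in the anti-PD-1 samples. In both, sample 3 of the anti-PD-1 group was the highest and vehicle sample 2 the highest of its group. The factor Sall1, which holds microglial identity, had a difference of 0.60 (adjusted p = 0.0884). The number of microglial genes called was 8 without anti-PD-1 sample 1.

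Dendritic cell genes rose in part from low levels. The share called was 53.8%, against 23.1% of all genes tested. Of 13 tested, 7 rose and 0 fell, with a median of 0.63 (0.35 with a mean of at least 5 RPKM, 0.39 with no filter on low values and 0.26 with a pseudocount of 5 RPKM), and the list summed to 73.8 to 126 RPKM with vehicle and 113 to 145 RPKM with anti-PD-1. Cd209a, a lectin of monocyte-derived dendritic cells, was at 0.490, 0, 0.596 and 0 RPKM in the vehicle samples and 10.3, 2.29 and 1.07 RPKM in the anti-PD-1 samples (log2 fold change 1.78 with an SE of 0.48, adjusted p = 0.0175). Its vehicle values of 0 are values under the deposited constant, so no ratio is given, and the call was lost without anti-PD-1 sample 1 (adjusted p = 0.063). The others that rose were Ccr7, Il4i1 and Ccl22, given above, Tbc1d4 (0.41), the NF-κB subunit gene Relb (0.67), not called without anti-PD-1 sample 1 (adjusted p = 0.0516), and Fscn1 (0.69), not called without vehicle sample 1, 2 or 4 or without anti-PD-1 sample 1, 2 or 3 (adjusted p between 0.0567 and 0.15). The lineage genes Flt3, Zbtb46, Xcr1 and Clec9a were under the filter, with at most 1.85 RPKM in any sample of either group. For this list the number called was 4 without anti-PD-1 sample 1. Of 13 neutrophil genes tested 1 rose and 1 fell (15.4% called, against 23.1% of all genes tested). Csf3r rose by 0.65 (adjusted p = 0.00256), Il1r2 fell, and S100a8 and S100a9 had differences of 0.25 and 0.28 (adjusted p = 0.782 and 0.781). Ly6g was at most 0.588 RPKM.

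Most lymphocyte transcripts were present in traces. The 16 T cell genes were all under the filter, and they summed to 3.37, 2.59, 3.08 and 1.85 RPKM with vehicle and 9.74, 5.69 and 1.95 RPKM with anti-PD-1. Anti-PD-1 sample 1 stood highest and sample 3 lay within the vehicle range. For NK and cytotoxic genes the sums were 168, 281, 139 and 116 RPKM and 493, 543 and 316 RPKM, with no overlap, but most of this is Ccl5, which myeloid cells also make. Gzmb, the granzyme B gene, was at 0.402, 3.70, 1.53 and 2.49 RPKM in the vehicle samples and 11.9, 22.2 and 1.08 RPKM in the anti-PD-1 samples (log2 fold change 1.63 with an SE of 0.68, adjusted p = 0.0998), and Prf1, the perforin gene, at 0.250, 0.947, 0.611 and 0.684 RPKM in the vehicle samples and 7.15, 5.57 and 0.230 RPKM in the anti-PD-1 samples (log2 fold change 1.33 with an SE of 0.52, adjusted p = 0.0795). Neither passed. Of 9 genes tested 2 rose, Ccl5 and Klrk1 (0.70, adjusted p = 0.0384, lost without vehicle sample 1, 2 or 4 or without anti-PD-1 sample 1 or 2, adjusted p between 0.0639 and 0.171), and 0 fell. This was 22.2% called, against 23.1% of all genes tested. The number called was 0 without anti-PD-1 sample 2, 1 without vehicle sample 1, vehicle sample 2, vehicle sample 4 or anti-PD-1 sample 1 and 8 without anti-PD-1 sample 3. B cell genes summed to 23.2 to 32.5 and 21.5 to 32.7 RPKM in vehicle and anti-PD-1 samples, and 0 of 2 tested, Cd79b and Cd22, passed by limma or had an unadjusted p under 0.05 (smallest adjusted p = 0.601). The part of lymphocyte RNA in the differences above was not tested.

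**Figure D4:**
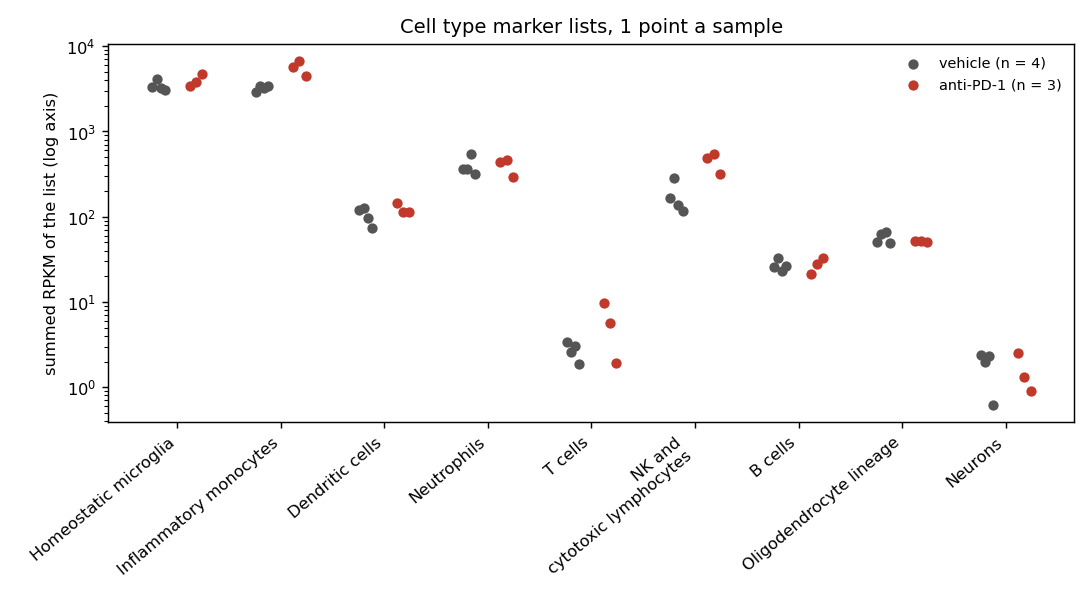
Summed RPKM of 9 marker lists on a log axis, 1 point for each of the 4 vehicle samples (grey) and 3 anti-PD-1 samples (red). Only the monocyte list and the NK and cytotoxic list, the latter mostly Ccl5, have all anti-PD-1 samples above all vehicle samples.

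Of genes that mark GAMs, 4.76% passed in the lipid and phagocytosis list, 21.4% in alternative activation and 11.1% in border-associated macrophages. Over all genes tested the share was 23.1%. Of 21 genes of lipid handling and phagocytosis, 0 rose and 1 fell, with a median of 0.02. The gene that fell was Cd63, a tetraspanin of late endosomes, at 182, 203, 136 and 207 RPKM in the vehicle samples and 72.3, 112 and 116 RPKM in the anti-PD-1 samples (log2 fold change -0.87 with an SE of 0.17, adjusted p = 0.00352). Gpnmb, a glycoprotein of lipid-laden macrophages, was at 136, 186, 107 and 214 RPKM in the vehicle samples and 76.9, 102 and 112 RPKM in the anti-PD-1 samples (log2 fold change -0.69 with an SE of 0.24, adjusted p = 0.0509), just outside the threshold, and Apoe, the apolipoprotein E gene, at 15219, 14788, 14296 and 11366 RPKM in the vehicle samples and 12252, 9969 and 8462 RPKM in the anti-PD-1 samples (log2 fold change -0.45 with an SE of 0.18, adjusted p = 0.0801). Spp1, the integrin ligand osteopontin, was at 206, 407, 244 and 242 RPKM in the vehicle samples and 168, 245 and 179 RPKM in the anti-PD-1 samples (log2 fold change -0.44 with an SE of 0.35, adjusted p = 0.384). Its groups overlapped. The number called was 2 without vehicle sample 3 or anti-PD-1 sample 1. Of 14 genes of alternative activation, Ccl22 rose, and Ocstamp and Ecm1 fell. Ocstamp, a gene of osteoclast fusion, was at 43.6, 43.8, 47.7 and 52.1 RPKM in the vehicle samples and 13.01, 19.5 and 11.0 RPKM in the anti-PD-1 samples (log2 fold change -1.66 with an SE of 0.32, adjusted p = 0.00293), with no overlap. Ecm1, an extracellular matrix gene, changed by -0.65 (adjusted p = 0.0397), a call lost without vehicle sample 1, 2 or 3 or without anti-PD-1 sample 1, 2 or 3 (adjusted p between 0.0537 and 0.131). The mannose receptor gene Mrc1 was at 73.9, 98.9, 77.7 and 113 RPKM in the vehicle samples and 21.8, 63.2 and 76.3 RPKM in the anti-PD-1 samples (log2 fold change -0.90 with an SE of 0.40, adjusted p = 0.12). The number called was 1 without anti-PD-1 sample 1. Of 9 genes of border-associated macrophages only Cd38 passed, with -0.52 (adjusted p = 0.0239), and it was not called without vehicle sample 1 or 4 or without anti-PD-1 sample 1 or 3 (adjusted p between 0.0624 and 0.0796).

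Most genes of glycolysis rose. Of 30 genes of glycolysis and hypoxia, 22 rose and 1 fell, with a median of 0.48, and they summed to 1529.6, 1501, 1696 and 1593 RPKM with vehicle and 2310.0, 2413 and 1975 RPKM with anti-PD-1. Hk3, a myeloid hexokinase, was at 21.0, 32.6, 52.8 and 42.6 RPKM in the vehicle samples and 91.4, 128 and 113 RPKM in the anti-PD-1 samples (log2 fold change 1.61 with an SE of 0.24, adjusted p = 0.000649), and Tpi1, triose phosphate isomerase, at 61.8, 69.5, 77.5 and 61.2 RPKM in the vehicle samples and 159, 147 and 118 RPKM in the anti-PD-1 samples (log2 fold change 1.05 with an SE of 0.12, adjusted p = 0.000139). Both separated the groups fully. Hk2 rose by 0.59, Pfkl by 0.97, Pgk1 by 0.72 and Ldha by 0.46 (adjusted p = 0.00358, 0.0017, 0.000707 and 0.00438). The lactate exporter gene Slc16a3 rose by 1.09 (adjusted p = 0.00184). Hypoxia targets rose too, with 0.90 for P4ha1, a prolyl hydroxylase of collagen, 0.89 for Ndrg1 and 0.79 for Ankrd37, and an adjusted p of at most 0.00544. Egln3, Bnip3 and Pdk1 rose by 1.01, 0.45 and 0.335. These calls were lost in some fits with 1 sample left out, and each was lost without anti-PD-1 sample 2 (adjusted p between 0.0854 and 0.129). Gapdh, often used as a reference gene, had a difference of 0.18 (adjusted p = 0.109). The glucose transporters moved apart. Slc2a1 rose by 0.54 (adjusted p = 0.0377, lost without vehicle sample 2, 3 or 4 or without anti-PD-1 sample 1 or 2, adjusted p between 0.0576 and 0.16), and Slc2a3 changed by -0.56 (adjusted p = 0.0177, lost without anti-PD-1 sample 1 or 2, adjusted p between 0.0575 and 0.0667).

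Genes of oxidative phosphorylation that passed fell, with 1 exception. Of 76 nuclear genes tested, 1 rose and 22 fell (30.3% called, against 23.1% of all genes tested), with a median of -0.13. Over all genes tested, 10.8% rose and 12.2% fell. The number of these nuclear genes called was 14 without anti-PD-1 sample 2 and 15 without anti-PD-1 sample 1. Ndufs8, a complex I subunit, was at 63.9, 61.7, 62.5 and 59.0 RPKM in the vehicle samples and 43.6, 40.3 and 46.4 RPKM in the anti-PD-1 samples (log2 fold change -0.50 with an SE of 0.06, adjusted p = 0.000213). Ndufa6, also of complex I, and Cox4i1, of complex IV, changed by -0.50 and -0.34 (adjusted p = 0.00403 and 0.00197). Cycs, which encodes cytochrome c, rose by 0.43 (adjusted p = 0.0155), not called without anti-PD-1 sample 1 or 2 (adjusted p between 0.061 and 0.0616). Cytosolic ribosomal proteins fell as a class. Of 80 tested, 0 rose and 76 fell, with a median of -0.48. They summed to 37880.4, 37034, 36533 and 36569.5 RPKM with vehicle and 27157, 27245 and 25126 RPKM with anti-PD-1, which leaves a clear gap between the groups. Rpl12 was at 299, 299, 281 and 284 RPKM in the vehicle samples and 182, 187 and 171 RPKM in the anti-PD-1 samples (log2 fold change -0.69 with an SE of 0.06, adjusted p = 2.96e-05), and Rps12 changed by -0.60 (adjusted p = 9.13e-05). With quantile normalization 66 of these genes fell, with a median of -0.39. These genes are short, and length moved with the fold change across all genes. In the shortest 1 in 5 genes, of up to 2494 exonic bases, the median was -0.05, and 8.93% of genes rose and 18.2% fell, or without the ribosomal protein genes -0.04, 9.19% and 16.01%. In the longest 1 in 5 genes, of at least 7464 bases, the median was 0.03, with 13.1% rising and 7.55% falling. The part of length in these lists was not tested. Proliferation genes showed 0 rises and 1 fall in 37 tested (2.70% called, against 23.1% of all genes tested). Their median was -0.20 (-0.09 with a mean of at least 5 RPKM, -0.08 with a pseudocount of 5 RPKM, -0.10 without anti-PD-1 sample 1, -0.35 without anti-PD-1 sample 3 and -0.14 without vehicle sample 3). The fall was in Hmgb2 (-0.45, adjusted p = 0.0321), not called without vehicle sample 1, 3 or 4 or without anti-PD-1 sample 2 (adjusted p between 0.0514 and 0.162), and the cycle marker Mki67 had a difference of -0.20 (adjusted p = 0.588).

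Glucocorticoid-responsive genes fell more than any other list by median. Glucocorticoids act through a nuclear receptor whose targets include feedback genes such as Fkbp5 and Tsc22d3. Of 11 genes tested, 0 rose and 8 fell, with a median of -1.38. Besides Ddit4, Klf9, Mt1 and Mt2, given above, Tsc22d3, which encodes the anti-inflammatory protein GILZ, was at 43.1, 88.5, 52.4 and 48.3 RPKM in the vehicle samples and 13.1, 17.5 and 38.6 RPKM in the anti-PD-1 samples (log2 fold change -1.38 with an SE of 0.32, adjusted p = 0.00806). Fkbp5, a co-chaperone of the receptor, was at 52.4, 94.6, 44.1 and 62.7 RPKM in the vehicle samples and 5.98, 24.3 and 44.6 RPKM in the anti-PD-1 samples (log2 fold change -1.63 with an SE of 0.47, adjusted p = 0.026). Sample 1 was lowest and sample 3 reached the lower end of the vehicle values, and the call was lost without vehicle sample 2 or 4 or without anti-PD-1 sample 1 (adjusted p between 0.0508 and 0.0812). Per1, at 60.9, 74.7, 36.2 and 34.8 RPKM in the vehicle samples and 13.1, 12.6 and 36.9 RPKM in the anti-PD-1 samples, changed by -1.37 (adjusted p = 0.0172), not called without anti-PD-1 sample 1 or 2 (adjusted p between 0.0723 and 0.0872), and Zbtb16 by -1.17 (adjusted p = 0.00932), not called without anti-PD-1 sample 2 (adjusted p = 0.0517). In this list sample 3 was the anti-PD-1 sample nearest to vehicle for Ddit4, Klf9, Tsc22d3, Fkbp5 and Per1. The kinase gene Sgk1 had a difference of -0.21 and the phosphatase gene Dusp1 one of -0.69 (adjusted p = 0.365 and 0.0686), and Cdkn1a one of 0.15. Per1 is also a clock gene. Of 13 clock genes, 0 rose and 3 fell, the others being Cry1 (-0.58, adjusted p = 0.00942) and Nr1d1 (-0.76, adjusted p = 0.0298, not called without vehicle sample 1 or 2 or without anti-PD-1 sample 2 or 3, adjusted p between 0.0527 and 0.13). For clock genes the share called was 23.1%, the same as over all genes tested, and the number called was 1 without anti-PD-1 sample 2. Neither corticosteroid levels nor the hour of sorting are among the data used here.

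Genes that respond to tissue dissociation were also counted. Of 19 immediate early genes, 3 rose and 0 fell (15.8% called, against 23.1% of all genes tested), with a median of 0.03. They were Egr2 (0.85), Egr3 (0.67) and Atf3 (0.83). Egr2 was not called without vehicle sample 1 or 2 or without anti-PD-1 sample 2 or 3 (adjusted p between 0.0585 and 0.141), Egr3 not without vehicle sample 1, 3 or 4 or without anti-PD-1 sample 1, 2 or 3 (adjusted p between 0.057 and 0.166) and Atf3 not without vehicle sample 1, 2 or 4 or without anti-PD-1 sample 1 or 2 (adjusted p between 0.066 and 0.146), and the number called was 0 without vehicle sample 1 or anti-PD-1 sample 2 and 1 without vehicle sample 2, vehicle sample 4, anti-PD-1 sample 1 or anti-PD-1 sample 3. Fos and Jun, the classical members, had differences of -0.03 and 0.56 (adjusted p = 0.925 and 0.176). Of 15 heat shock and chaperone genes 6 rose and 0 fell (40% called, against 23.1% of all genes tested). The number called was 1 without vehicle sample 2, anti-PD-1 sample 1 or anti-PD-1 sample 2 and 3 without vehicle sample 1 or vehicle sample 4. Hspa5, the chaperone BiP of the endoplasmic reticulum, was at 121, 122, 168 and 129 RPKM in the vehicle samples and 245, 224 and 212 RPKM in the anti-PD-1 samples (log2 fold change 0.75 with an SE of 0.15, adjusted p = 0.00368). The others that rose were Hsph1 (0.83), Chordc1 (0.56), Hsp90aa1 (0.49), Dnaja1 (0.43) and Hsf1 (0.27). Each was not called without vehicle sample 2 or without anti-PD-1 sample 1 or 2 (adjusted p between 0.0546 and 0.18). RNA of non-myeloid brain cells was low. Neuronal genes summed to 0.617 to 2.41 RPKM with vehicle and 0.903 to 2.55 RPKM with anti-PD-1, and oligodendrocyte lineage genes to 48.6 to 65.6 and 50.4 to 52.6 RPKM. Within the latter list 2 genes rose and 3 fell of 7 (71.4% called, against 23.1% of all genes tested). Which cells this RNA came from was not tested. Sox10 was at 6.20, 8.55, 8.66 and 5.90 RPKM in the vehicle samples and 3.25, 3.27 and 2.12 RPKM in the anti-PD-1 samples (log2 fold change -1.10 with an SE of 0.15, adjusted p = 0.000485), and Olig1 and Olig2, which like Sox10 encode factors of the oligodendrocyte lineage, changed by -1.07 and -0.68 (adjusted p = 0.00419 and 0.0186). Olig2 was not called without vehicle sample 2 or without anti-PD-1 sample 2 or 3 (adjusted p between 0.0517 and 0.0607). Cnp, a myelin enzyme, rose by 0.54 (adjusted p = 0.00359) and Mag by 0.31, not called without vehicle sample 1 or 4 or without anti-PD-1 sample 2 or 3 (adjusted p between 0.075 and 0.142), while Mbp, a major myelin gene, had a difference of 0.01 (adjusted p = 0.955). The number called was 3 without anti-PD-1 sample 2 or anti-PD-1 sample 3.

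Of 4 genes of vessels that were tested, 3 rose and 0 fell (75% called, against 23.1% of all genes tested). The other 6 genes of this list were under the filter. The median was 0.74, and 0.20 with no filter on low values. Pecam1, which endothelial and some myeloid cells express, was at 2.31, 5.38, 2.62 and 3.12 RPKM in the vehicle samples and 5.53, 9.84 and 10.2 RPKM in the anti-PD-1 samples (log2 fold change 1.13 with an SE of 0.22, adjusted p = 0.00297). Flt1, a VEGF receptor gene, was at 1.05, 2.598, 1.39 and 2.16 RPKM in the vehicle samples and 2.36, 7.13 and 9.05 RPKM in the anti-PD-1 samples (log2 fold change 1.25 with an SE of 0.34, adjusted p = 0.0181), not called without vehicle sample 1 or without anti-PD-1 sample 2 or 3 (adjusted p between 0.052 and 0.0821), and Kdr rose by 0.35, not called without vehicle sample 2 or without anti-PD-1 sample 1 (adjusted p between 0.059 and 0.106). The endothelial gene Cldn5 was at most 1.39 RPKM with vehicle and 1.18 RPKM with anti-PD-1. For Pecam1 and Flt1 anti-PD-1 sample 1 was the lowest of its group, as it was for H2-Oa and Pdcd1lg2. Of 5 astrocyte genes Aldoc rose by 0.70 (adjusted p = 0.00421) and S100b changed by -0.58 (adjusted p = 0.018), not called without vehicle sample 2 or without anti-PD-1 sample 3 (adjusted p between 0.051 and 0.0801). Aldoc is also an enzyme of glycolysis. The share of astrocyte genes called was 40%, against 23.1% of all genes tested. Among 13 integrin subunits, a family that includes the receptors blocked by 7aaRGD, 4 rose and 0 fell. This was 30.8% called, against 23.1% of all genes tested. Itgb2, the leukocyte beta chain, was at 283, 307, 267 and 289 RPKM in the vehicle samples and 388, 397 and 392.1 RPKM in the anti-PD-1 samples (log2 fold change 0.45 with an SE of 0.07, adjusted p = 0.000748), and its partner Itgal rose by 0.55 (adjusted p = 0.0035). Itgb1 rose by 0.29 (adjusted p = 0.00779) and Itgb7 by 0.80, not called without anti-PD-1 sample 1 (adjusted p = 0.0531). The subunits of the osteopontin receptor, Itgav and Itgb3, had differences of 0.13 and -0.36 (adjusted p = 0.358 and 0.459). Few lysosome and sterol genes passed, 13.3% and 4.76%, against 23.1% of all genes tested. Of 30 lysosome genes 2 rose and 2 fell with a median of -0.01, and the number called was 2 without anti-PD-1 sample 2 and 7 without vehicle sample 3. Hexa, a lysosomal hydrolase gene, rose by 0.55 (adjusted p = 0.00398). Of 21 sterol genes 1 rose and 0 fell. The gene that rose was Nr1h3, the nuclear receptor LXRα (0.90, adjusted p = 0.014), not called without anti-PD-1 sample 1 (adjusted p = 0.0629), and the number called was 2 without vehicle sample 1, vehicle sample 3 or anti-PD-1 sample 3.

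Genes that the study names for day 28, which were chosen on these samples and are no independent evidence of direction, gave 15 rises and 3 falls in 31 tested, with a median of 0.92 (0.59 with a pseudocount of 5 RPKM).

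Anti-PD-1 alone was set directly against the combination and against 7aaRGD. These contrasts share no vehicle sample, but use the same 3 anti-PD-1 samples and the same spread estimate as the comparison with vehicle. Between the combination and anti-PD-1, 4 of 9732 genes (0.0411%) passed, 2 in each direction, and 1460 had an unadjusted p under 0.05. Under median-of-ratios scaling 3 rose and 1 fell, and after quantile normalization 3 rose and 2 fell. Tnfrsf9, the co-stimulatory receptor 4-1BB, was at 1.19, 2.75 and 1.22 RPKM with anti-PD-1 and 13.7, 4.86 and 8.56 RPKM with the combination (log2 fold change 1.83 with an SE of 0.27, adjusted p = 0.0348). Every combination sample was higher than every anti-PD-1 sample. The others were Dpysl2 (0.49), a cytoskeletal regulator, Ssbp4 (-0.48) and the mitochondrial ribosomal gene Mrps34 (-0.46). Without combination sample 1, without combination sample 3 or without anti-PD-1 sample 3 the count was 0, without anti-PD-1 sample 1 it was 1, and without combination sample 2 it was 26. Some genes that anti-PD-1 had moved lay further from vehicle in the combination without passing. Nos2 was at 18.3, 34.1 and 17.2 RPKM with anti-PD-1 and 65.9, 41.8 and 56.4 RPKM with the combination (log2 fold change 1.25 with an SE of 0.29, adjusted p = 0.0835), Upp1 at 11.6, 11.1 and 7.93 and 27.2, 15.8 and 22.95 RPKM (log2 fold change 1.02 with an SE of 0.21, adjusted p = 0.068) and Klf9 at 1.70, 4.12 and 8.46 and 0.971, 0.698 and 1.06 RPKM (log2 fold change -1.41 with an SE of 0.35, adjusted p = 0.09). For Ccl2, at 41.6, 45.6 and 43.7 RPKM and 37.8, 45.5 and 48.1 RPKM, the values overlapped (adjusted p = 0.999).

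Against 7aaRGD alone, 1439 genes (14.8%) differed, 625 higher and 814 lower with anti-PD-1. Under median-of-ratios scaling the split was 771 higher and 645 lower. Without anti-PD-1 sample 2 the count was 493, and without anti-PD-1 sample 1 it was 955. The smallest p values were those of Upp1 at 2.36 (adjusted p = 0.000113), Ass1 at 2.14 (adjusted p = 0.000129), Anapc16, a subunit of the anaphase-promoting complex, at -0.79 (adjusted p = 0.000223), Pithd1 at -0.55 (adjusted p = 0.000333) and Galnt6, a glycosyltransferase gene, at -0.98 (adjusted p = 0.000333). Gbp2 was at 124, 166, 139.8 and 113 RPKM in the 7aaRGD samples, like vehicle, and its difference to anti-PD-1 was 1.25 (adjusted p = 0.00336). Nos2 was at 5.76, 2.12, 2.92 and 3.13 RPKM with 7aaRGD, and its difference was 2.43 (adjusted p = 0.000522). Ccl2 behaved otherwise. It was at 31.8, 23.6, 18.7 and 39.0 RPKM with 7aaRGD, above every vehicle sample, and the difference of anti-PD-1 to 7aaRGD was 0.66 (adjusted p = 0.084). For Ccl7, at 10.7, 12.8, 7.39 and 14.03 RPKM with 7aaRGD, the difference was 1.44 (adjusted p = 0.00174). Ribosomal proteins summed to 30086, 30888, 30774 and 29477 RPKM with 7aaRGD and 21529.6, 23038 and 23687 RPKM with the combination, so that anti-PD-1 lay between them. With 7aaRGD alone 42 of 80 ribosomal protein genes were lower than with vehicle, with a median of -0.29, so a fall was also seen without the antibody. That contrast uses the same vehicle samples as the one with anti-PD-1. Directly against 7aaRGD, 39 of these genes were lower with anti-PD-1 and 0 higher, with a median of -0.198. Glucocorticoid-responsive genes summed to 623, 450.3, 609 and 567 RPKM with 7aaRGD and 284, 262 and 320.1 RPKM with the combination, beside 689, 807, 582 and 593 RPKM with vehicle and 243, 316 and 396 RPKM with anti-PD-1. Samples without the antibody were high and samples with it low. The first principal component of the 14 samples (53.1% of the variance) placed vehicle and 7aaRGD samples between -0.29 and -0.18, anti-PD-1 samples at 0.228, 0.231 and 0.113 and combination samples between 0.358 and 0.442. The labels give no sorting or sequencing date, so a batch that coincided with the antibody cannot be told apart from it.

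**Figure D5:**
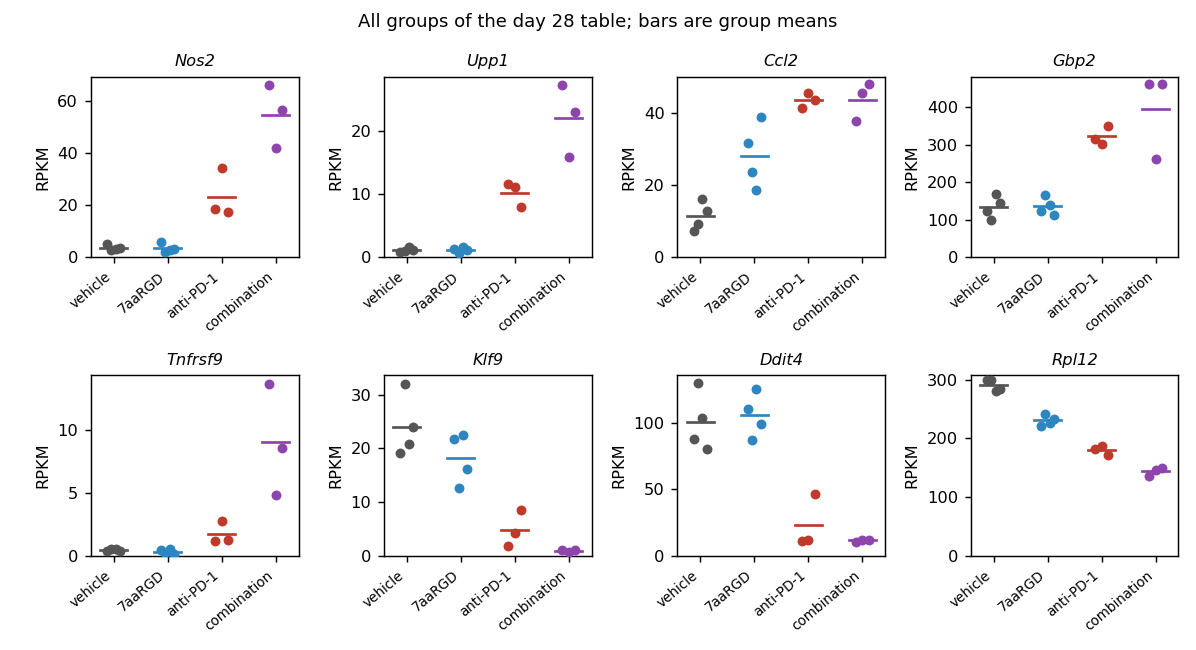
RPKM of 8 genes in the 4 groups of the day 28 table, 1 point a sample with a bar at the group mean, on linear axes that start at 0. Nos2, Upp1 and Gbp2 are high only with the antibody, Ccl2 is also raised with 7aaRGD, Tnfrsf9 is highest in the combination, and Klf9, Ddit4 and Rpl12 are low in both antibody groups. Over the class of Rpl12, 42 of 80 ribosomal protein genes were also lower with 7aaRGD alone than with vehicle.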

How the data were processed

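RNA of CD11b+ cells sorted by flow cytometry was sequenced with a stranded polyA protocol. Per the study's methods and processing notes, reads were trimmed with Trimmomatic, aligned with STAR to mm10 and counted with HTSeq 0.11.1. The values deposited by the authors are RPKM plus a constant of 2: after subtraction, RPKM times exonic length summed to 0.988 to 1.007 of the value that RPKM has by definition in every sample. Of the values, 5.12% to 7.76% per sample lay under the constant (lowest -0.422 RPKM) and were set to 0. Residuals of the replicates spanned 9 of the 10 dimensions expected, as after removal of 1 component, a step not given in the sources used here. The p-values may therefore be too small.

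Read depth is unknown, so no count test was run. Samples had 9548 to 9815 genes at 1 RPKM or more, the 10 most abundant genes held 15.4% to 19.6% of the total, and pairwise r of log2(RPKM + 1) was 0.949 to 0.992. Of 54513 entries, 98.7% matched the GENCODE M21 annotation (GRCm38), 21826 of them protein-coding. Genes with a mean of 1 RPKM or more were tested on log2(RPKM + 1) with limma 3.58.1 (R 4.3.3; lmFit, contrasts and eBayes with trend) over all 14 samples, two-sided, with Benjamini-Hochberg adjustment. The code was tested on simulated data.

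Groups came from the sample titles, since the treatment field of 3 anti-PD-1 samples counts up the number in the antibody's name. Each sample was 1 animal. The genes and lists were chosen with earlier results of these data known. Named were Pdcd1, its ligands, the Fc gamma receptors, the 15 largest rises and 15 largest falls past the threshold without overlap, list members past the threshold or else up to 4 with the highest mean and largest fold change, genes the study names and the 5 smallest p of each direct contrast. Other genes in the text (Ifng, Ido1, Ly6g and Cldn5, for example) are list members named after their values were seen. A few genes that the rule names are not reported here. Alternatives were other pseudocounts, filters, scalings, sample sets, a replicate block, 1 degree of freedom less and each sample left out. Figures were drawn with matplotlib 3.10.9.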

Additional observations from a re-analysis of the deposited data

Results flagged for a closer look

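Within the vehicle group 1 sample lay far from the other 3 for 11 of 271 genes checked, by Dixon's criterion, which chance alone meets in about 1 of 20 groups. In 8 of the 11 the distant sample was high.

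Vehicle sample 2 was the lowest for Irf8 (56.3 RPKM), Ifit1 (7.498 RPKM) and Itgb7 (22.3 RPKM), and the highest for Sall1 (38.0 RPKM) and H2-T23 (192 RPKM). Vehicle sample 3 was the highest for Gbp2b (6.35 RPKM), S100a8 (65.9 RPKM), Hspa5 (168 RPKM) and Ndufv3 (26.7 RPKM). Vehicle sample 1 was the highest for Il1b (226 RPKM) and Nr1d1 (2.69 RPKM).

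The combination differed from anti-PD-1 alone in a direct test (limma, adjusted over 9732 genes) for 4 genes. The log2 fold change was 1.83 for Tnfrsf9 (adjusted p = 0.0348), 0.49 for Dpysl2 (adjusted p = 0.0108), -0.48 for Ssbp4 (adjusted p = 0.0196) and -0.46 for Mrps34 (adjusted p = 0.0498).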

How the results depend on the processing

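Anti-PD-1 against vehicle gave 2245 genes, 132 of them with an absolute log2 fold change of at least 1, and 1357 to 2253 with 1 sample left out. Whether replicate numbers pair the samples is not known. The correlation of residuals exceeded 0.1 in 3 of 19 same-numbered pairs, and in 1 of 3 pairs of vehicle and anti-PD-1. With groups of 3 or 4 samples and 1 component missing from the residuals, these correlations cannot exclude pairing. With a replicate block 1824 genes passed, 863 higher and 961 lower. Values kept below 0, an alternative chosen after seeing the data, changed no count.

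The combination against anti-PD-1 gave 4 genes. The count was 14 with a pseudocount of 5 RPKM, 20 without a filter, 13 with a mean of at least 5 RPKM, 2 over all entries with a name, 0 with only the groups compared, 0 with a replicate block, 1 with 1 residual degree of freedom less, 1 with an absolute log2 fold change of at least 1, 184 at an adjusted p under 0.1 and 0 to 26 with 1 sample left out. Anti-PD-1 against 7aaRGD gave 1439 genes. The count was 574 with only the groups compared, 882 with a replicate block, 105 with an absolute log2 fold change of at least 1, 2304 at an adjusted p under 0.1 and 493 to 1589 with 1 sample left out. The cause was not tested, beyond fewer samples or a stricter threshold where these are the alternative.

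Of 233 named genes that passed, 145 kept the call in every alternative run, 88 lost it in at least 1 and 0 changed sign. Of these calls, 40 were lost with no filter on low values (adjusted p between 0.0509 and 0.087), 25 with only the groups compared (0.0501 to 0.076), 26 with 1 residual degree of freedom less (0.0515 to 0.0672), 42 with a replicate block (0.051 to 0.109), 9 with quantile normalization (0.0509 to 0.227, among them Fcgr3, Irf8 and Ifngr2), 3 with median-of-ratios scaling (Egr3, H2-Oa and Irf7), 3 with a pseudocount of 0.1 RPKM (Egr3, Iigp1 and Ubd) and 2 with one of 5 RPKM (Cxcl13 and Tnfrsf9). The replicate block brought the median of MHC class II from 0.33 to 0.21. Of genes that did not pass, 7 changed sign with 1 sample left out, with log2 fold changes of -0.24 to 0.068 for Fcgr2b, -0.045 to 1.32 for Arg1, -0.047 to 1.44 for Chil3, -0.059 to 0.12 for P2ry12, -0.091 to 0.79 for S100a8, -0.043 to 0.87 for S100a9 and -0.43 to 0.025 for Mki67. The median of the oligodendrocyte lineage list ran from -0.33 to 0.077 in these fits and was 0.01 with a mean of at least 5 RPKM.

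The comparison rests on 3 against 4 animals, read depth is unknown, and values near 1 RPKM lie close to the constant that was added. With 1 residual degree of freedom less, for the component missing from the residuals, 1851 genes passed between anti-PD-1 and vehicle.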
